A study of Mus musculus with 24 samples.

Results

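The response of dorsal root ganglia to nerve crush was measured in mice of the strain labelled DBA, as 4 libraries from ganglia taken 5 days after crush of the sciatic nerve and 4 libraries from naive ganglia. These 8 libraries were chosen by their titles from the 24 libraries analysed here, which hold naive and injured ganglia of the strains C57, CAST and DBA with 4 libraries in each of the 6 groups. The design text describes each group as biological quadruplicates. The labelled treatment sets crush against sham injury, the sample labels say naive, and whether the naive mice had a sham operation is not given in the sources used here, nor are age, the spinal level of the ganglia and any pooling of animals. The 16 libraries of the other strains shared the estimate of the spread and served to ask where DBA differed.

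Dorsal root ganglia hold the cell bodies of sensory neurons, each wrapped by satellite glia, and the axons of the lumbar ganglia run in the sciatic nerve. After a crush the axons distal to the lesion degenerate and the neurons regrow them, in a programme led by transcription factors such as Atf3 and Jun. Neurons in that state make growth proteins and injury peptides and lower many receptors, ion channels and peptides of the resting neuron, while macrophages gather in the ganglion. RNA was extracted from whole ganglia, so fewer cells of a type and less RNA per cell cannot be told apart.

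Values are the authors' FPKM, which scale fragments by gene length and sequencing depth, where the length was found to be the genomic span of the gene with its introns. Levels are therefore compared within a gene and not between genes. Changes were tested with limma on log2(FPKM + 0.1) over 27064 genes. Genes with an adjusted p under 0.05 are termed called. The 8 DBA libraries held 85.6 to 115 M reads, with 63.3% to 64.2% of them in genes. Markers of the labelled tissue were present in every DBA library: Prph, the intermediate filament of small sensory neurons, lay at 187 to 210 FPKM, and Isl1, a transcription factor of sensory neurons, at 1.64 to 2.43. The first principal component of the 8 libraries held 66.3% of their variance and separated the groups. Naive replicate 3 stood apart on the second component, which held 7.86%, and carried skeletal muscle transcripts: the 26 muscle genes listed summed to 59.8 FPKM in it and to 2.29, 4.16 and 9.2 in the other naive libraries. Counts and calls of the DBA response that rest on it are given with and without it.

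Some posterior Hox genes also stood apart, low in all 4 injured DBA libraries. Hox genes hold a record of position along the body axis, and paralogue groups 10 and 11 are those of its lumbar and sacral part. Hoxd10 (chromosome 2, 74691924 to 74695105, mm10) lay at 2.8, 2.85, 3.85 and 2.42 FPKM in the naive DBA libraries and at 0.656, 0.395, 0.517 and 0.475 in the injured ones. In the 16 libraries of the other strains, naive and injured, it ranged from 1.93 to 3.54. Hoxc11 (chromosome 15, 102954427 to 102957708) had 269, 269, 413 and 184 estimated reads in the naive DBA libraries and 2, 4, 1 and 2 in the injured ones, and its FPKM in the other strains ranged from 0.242 to 0.848. Hoxd11, next to Hoxd10, went from a mean of 0.907 to 0.105 FPKM in DBA (adjusted p = 2.3e-10), with log2 fold changes of -0.08 in C57 and -0.26 in CAST. The difference of the DBA response from the mean of the other strains was -2.29 for Hoxd10 (adjusted p = 4.1e-08), -3.21 for Hoxc11 (adjusted p = 2.7e-07) and -2.13 for Hoxd11 (adjusted p = 2.9e-07).

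**Figure D1:**
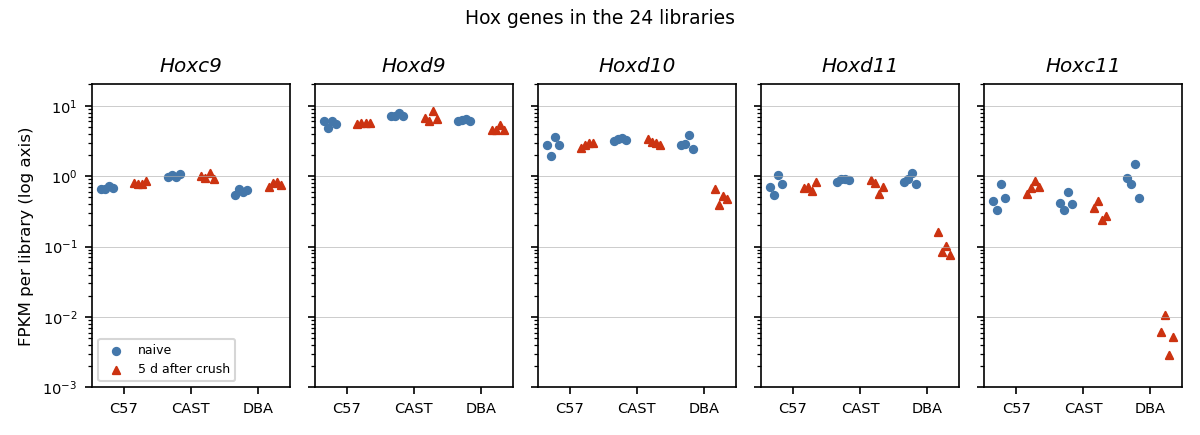
FPKM of 5 Hox genes in the 24 libraries on a log axis, grouped by strain, with naive libraries as blue circles and libraries 5 days after crush as red triangles. Hoxd10, Hoxd11 and Hoxc11 are low in the 4 injured DBA libraries, while Hoxc9 and Hoxd9 differ far less between the groups.

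Hox genes of more anterior groups gave another count. Of the 26 tested in groups 1 to 9, the DBA response lay below that of the other strains in 2 and above it in 2, whereas of the 6 tested in groups 10 and 11 it lay below in 5. Over all genes tested it lay below in 5.67% and above in 5.92%, and the split between groups 9 and 10 was made after the values were seen. Within groups 10 and 11 the log2 fold changes in DBA ranged from -3.17 to -0.32, so the fall was uneven. The Hoxa gene of group 10 had log2 fold changes of -0.32 in DBA, -0.32 in C57 and -0.27 in CAST. Its difference of -0.03 was not called. Hoxd9, the neighbour of Hoxd10, went from 6.02, 6.18, 6.57 and 6.1 FPKM to 4.56, 4.49, 5.31 and 4.52. Hotair, a noncoding RNA of the Hoxc cluster, had 62 to 83 estimated reads in the naive DBA libraries and 2, 0, 0 and 0 in the injured ones. The Hox genes other than Hoxd1 and Hoxd10 were chosen for this description after their values were seen. Within DBA, the crush and whatever else set the posterior Hox level of these libraries cannot be told apart, and its part in the results that follow was not tested.

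Crush changed the DBA ganglia widely. Of the genes tested, 13683 (50.6%) were called, 7188 higher (26.6%) and 6495 lower (24%) after injury, and 1227 of them (4.53%) changed by at least 2-fold, 826 upward (3.05%) and 401 downward (1.48%). With 50.6% of all genes called, a call by itself says little about a gene, and the lists below are read against those shares and against the median log2 fold change of all genes, 0.0086. The 4 values of one group did not overlap those of the other in 13419 genes (49.6%). Leaving out naive replicate 3 gave 6857 genes called higher and 6160 called lower, with 12654 of the calls kept, 1029 lost, 363 gained and 0 reversed. The number of calls lost on leaving out any other DBA library was 1029 to 1219.

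The rises and falls that follow are the largest among protein-coding genes with a mean of at least 1 FPKM in the higher group and no overlap between the groups. The largest rise was that of Sprr1a, a small proline-rich protein that injured sensory neurons make and that promotes axon outgrowth. It lay at 0.784, 0.632, 0.421 and 0.393 FPKM in the naive libraries and at 541, 546, 538 and 559 after crush, a 979-fold rise (log2 fold change 9.74 ± 0.29, adjusted p = 6.7e-16). The injured libraries differed among themselves by far less than they did from any naive one. Peptides followed: Npy, neuropeptide Y, went from 0.0837 to 0.15 FPKM in the naive libraries to 32.9 to 35 in the injured ones, a 320-fold rise. Gal, galanin, which acts on sensory neurons through its own receptors, rose 157-fold, from 2.4, 2.18, 1.8 and 2.28 FPKM to 347, 345, 323 and 346. Crh, corticotropin-releasing hormone, rose 183-fold to 7.86 to 8.9 FPKM, and Nts, neurotensin, 24.6-fold to 15.7 to 18.5 FPKM.

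The other 7 of the 12 largest rises had different roles. Atf3, a transcription factor of the ATF/CREB family and the standard mark of an axotomised neuron, went from 0.344, 0.313, 0.281 and 0.262 FPKM to 19.8, 17.6, 18.4 and 17.9, a 61.5-fold rise. Gpr151, an orphan G protein-coupled receptor, rose 62.3-fold and Ecel1, a membrane endopeptidase of the neprilysin family, 124-fold. Fst, follistatin, the secreted antagonist of activins, rose 28.9-fold, from 0.303 to 0.366 FPKM to 8.89 to 10.3. Ccl8, a chemokine for monocytes, lay at 0.0704, 0.0937, 0.246 and 0.12 FPKM before and at 7.36, 5.6, 8.2 and 6.2 after crush. C1ql2, a secreted protein of the C1q family, rose 57.1-fold, and Cyp26a1, an enzyme that breaks down retinoic acid, 35.1-fold.

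Promoters of these genes are shown where they hold the AP-1 motif TGAGTCA, to which dimers of Jun and Fos family proteins bind, since Jun and Fos rose with them. Both strands were searched over the 250 bases before the start in RefSeq (GRCm38.p6), where 1395 of 27025 genes (5.16%) hold it. The table had 9 of the 12 genes with the largest rises and the motif stood in 2, Sprr1a and Nts, and it had 8 of the 12 with the largest falls and the motif stood in 0. The sequences run 5′ to 3′ on the minus strand, with the motif in capitals, and end before the first base of the GENCODE gene. In Sprr1a the motif begins 146 and 116 bases before the RefSeq start, in Nts 207 bases before it; a match is a string of letters and not a measured binding site.
Sprr1a, chr3:92485896-92486131: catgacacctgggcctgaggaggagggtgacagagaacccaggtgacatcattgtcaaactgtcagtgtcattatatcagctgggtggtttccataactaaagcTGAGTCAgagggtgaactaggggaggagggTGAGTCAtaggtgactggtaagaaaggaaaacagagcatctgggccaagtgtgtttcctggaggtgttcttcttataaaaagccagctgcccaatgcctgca
Nts, chr10:102490487-102490668: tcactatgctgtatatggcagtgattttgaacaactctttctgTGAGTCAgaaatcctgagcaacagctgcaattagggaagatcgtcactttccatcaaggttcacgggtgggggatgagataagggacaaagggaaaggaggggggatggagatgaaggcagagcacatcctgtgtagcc

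The largest falls in this set were smaller than the largest rises. Hoxc11 fell more than any of them but had a mean under 1 FPKM before crush. Its fall was 146-fold as a ratio of means, and -3.17 as a log2 fold change, which the 0.1 FPKM added before the log limits. Htr3a, the serotonin-gated cation channel, went from 6.88, 6.39, 6.72 and 6.75 FPKM to 0.802, 1.23, 0.985 and 1.05, a 6.57-fold fall (log2 fold change -2.62 ± 0.12, adjusted p = 3e-13). Chrna6, a nicotinic acetylcholine receptor subunit, fell from 11.3 to 12.8 FPKM in the naive libraries to 2.2 to 3.4 in the injured ones. The remainder held receptors of the Mas-related family on itch and touch neurons (Mrgprb5, 5.11-fold lower, Mrgprb4, 4.48-fold, and Mrgprx1, 3.9-fold), Hox genes (Hoxd10, 5.84-fold, and Hoxd1, 3.86-fold) and single genes of other classes. The last were Comp, a matrix glycoprotein (4.87-fold), Kcnmb1, a subunit of calcium-activated potassium channels (4.25-fold), Klk8, a serine protease (4.39-fold), and Rnf112, a RING finger protein (3.65-fold). The Mas-related genes lie in a family of near-identical copies, and how the authors treated reads that map to several copies is not given in the sources used here, so the split between members is uncertain.

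Mylpf, the fast skeletal muscle light chain, was the remaining one of the 12 falls and rested on naive replicate 3. It lay at 0.639, 0.15, 4.16 and 0.272 FPKM in the naive libraries and at 0.112, 0.102, 0.139 and 0.086 in the injured ones. Its log2 fold change was -1.81 (adjusted p = 0.021) with all libraries and -0.97 (adjusted p = 0.098) without that replicate.

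**Figure D2:**
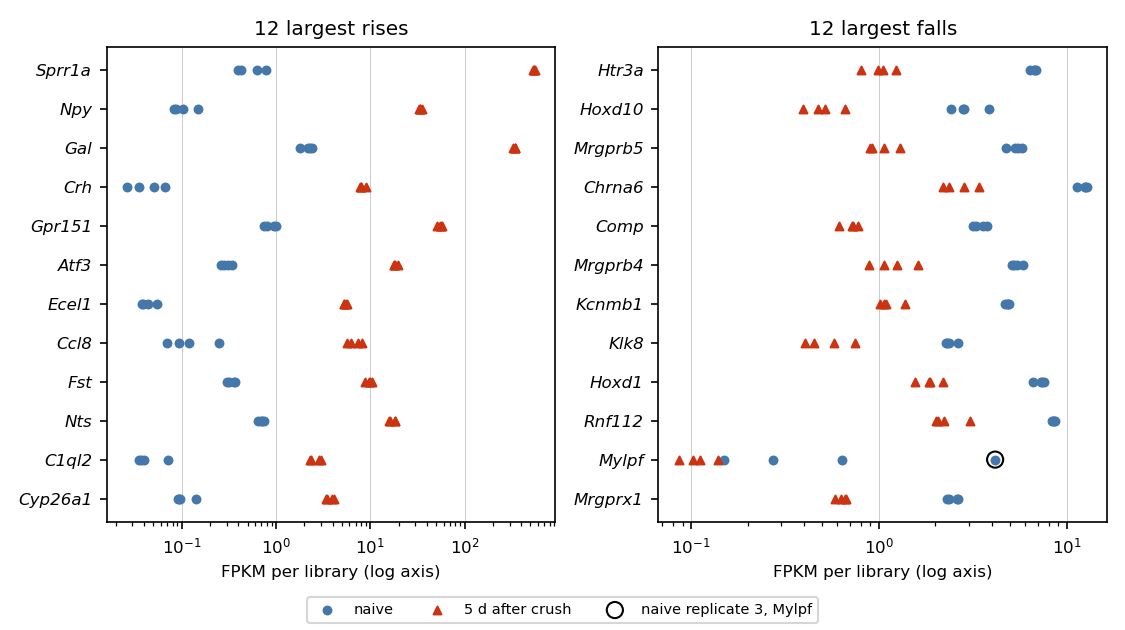
FPKM of each of the 8 DBA libraries on a log axis for the 12 genes that rose most (left) and the 12 that fell most (right), naive libraries as blue circles and libraries 5 days after crush as red triangles. The genes were chosen to have no overlap between the groups, which lie farthest apart in Sprr1a, and the circle around the 4.16 FPKM of Mylpf marks naive replicate 3.

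Transcription factors of the injury response rose as a group. Of 25 tested, 21 were called higher and 0 lower, with a median log2 fold change of 0.77. Besides Atf3, Sox11, a factor of growing neurons, went from 2.31, 2.28, 2.29 and 2.03 FPKM to 19, 18.1, 21.4 and 18.3, an 8.62-fold rise. Jun, a subunit of AP-1, rose 4.01-fold, from 15.5 to 16.7 FPKM to 61.1 to 67.9. Fos, its partner, went from a mean of 0.842 to one of 3.87 FPKM. Of 19 immediate early and handling stress genes, which respond within minutes to dissection as well as to injury, 13 were called higher and 3 lower, with Fos, Egr3 and Arc in front. The part of handling in these values was not tested.

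Stress programmes rose with them. In the integrated stress response, through which Atf4 raises amino acid synthesis and transport, 19 of 24 genes were called higher and 1 lower, led by Chac1, which degrades glutathione (mean 2.1 to 7.51 FPKM). Of 18 genes linked to p53, 13 were called higher and 3 lower. The growth arrest genes Gadd45a (1.99 to 25.3 FPKM) and Gadd45g (2.52 to 16.1) and the cell cycle inhibitor Cdkn1a (3.43 to 12.6) rose most among them.

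Factors that hold the identity of resting sensory neurons moved the other way. Of 19 tested, 13 were called lower and 4 higher, with a median of -0.50. The POU factors Pou4f2 and Pou4f3 fell from means of 4.91 and 9.75 FPKM to 1.55 and 3.18, and Mafa, a factor of mechanoreceptors, from 4.38 to 1.56. Isl2, a LIM homeobox factor, fell from 8.13 to 3.17 FPKM.

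Growth-associated and cytoskeletal genes rose almost throughout: 29 of 34 tested were called higher and 1 lower, with a median of 1.05. Gap43, the growth cone protein from which the class has its name, went from 1.1, 1.09, 1.06 and 1.15 FPKM to 6.02, 5.67, 6.06 and 6.2, a 5.44-fold rise. Flrt3, an adhesion protein, rose from a mean of 0.192 to 4.23 FPKM and Tubb6, a beta tubulin, from 1.14 to 15.3. Intermediate filaments split by kind, with 5 of 10 called higher and 4 lower: Gfap, the filament of reactive glia, went from 0.203, 0.155, 0.131 and 0.145 FPKM to 2.96, 2.17, 2.23 and 2.2. Vim and Nes, filaments of glia and immature cells, rose from means of 27.2 and 1.45 to 65.7 and 3.06 FPKM, while Nefh, the heavy chain of the neuronal filament, went from 310 to 193 FPKM. Of 36 axon guidance genes, 16 were called higher and 13 lower, both above the shares over all genes, with a median of 0.01; the largest changes were rises of the semaphorins Sema6a (0.0248 to 0.228 FPKM) and Sema4f (1.77 to 4.7).

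Neuropeptide precursors changed in both directions. Of 20 tested, 9 were called higher and 9 lower. Beside Npy, Gal, Crh and Nts, Ucn, urocortin, which acts on the receptors of Crh, rose from a mean of 0.13 to 2.48 FPKM. Vip, vasoactive intestinal peptide, was called higher at a very low level, 0.0156 to 0.0361 FPKM after crush (log2 fold change 0.18, adjusted p = 0.0022). The peptides of resting nociceptors went down: Tac1, the precursor of substance P, from 21.7, 21.4, 20.8 and 23.5 FPKM to 6.62, 7.45, 7.27 and 7, a 3.08-fold fall. Calca, the precursor of CGRP, fell 1.69-fold, from 84.8 to 93.8 FPKM to 48.6 to 56.9, and Sst, somatostatin, 2.75-fold, from 4.63 to 7.43 FPKM to 1.55 to 3.05. Receptors for peptides gave 6 of 24 called higher, near the 26.6% of all genes, and 10 lower, above the 24% of all genes. The CCK receptor Cckbr rose from a mean of 0.00908 to 1.04 FPKM and the neurotensin receptor Ntsr2 fell from 0.419 to 0.0866 FPKM.

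Genes of nociceptors and itch neurons fell most as a class, with 19 of 24 called lower, 3 higher and a median of -1.22. Scn10a, the sodium channel of nociceptors, went from 8.69, 8.89, 8.37 and 8.31 FPKM to 2.81, 3.31, 2.73 and 2.79, a 2.94-fold fall. Mrgprd, a receptor of nonpeptidergic nociceptors, fell 3.09-fold, from 19 to 20.5 FPKM to 5.82 to 7.57. Trpv1, the capsaicin receptor, fell by far less, 1.3-fold, from 1.55, 1.58, 1.6 and 1.57 FPKM to 1.2, 1.17, 1.18 and 1.29, with no overlap of the groups. Among markers of mechanoreceptors and proprioceptors 12 of 19 were called lower and 2 higher. Th, tyrosine hydroxylase, which marks low-threshold C fibres, fell 3.66-fold, from 0.988 to 1.16 FPKM to 0.246 to 0.37, and Pvalb, the calcium buffer of proprioceptors, 1.64-fold, from 1.51 to 2.06 to 0.853 to 1.19 FPKM.

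Ion channels and the synaptic machinery went down together. Of 27 voltage-gated sodium and calcium channel genes 18 were called lower and 2 higher, and of 37 potassium and HCN channel genes 31 were called lower and 2 higher, with a median of -0.63. Kcna2, a Kv1 channel of myelinated axons, fell from a mean of 11.2 to 3.66 FPKM. Cacna2d1, the calcium channel subunit bound by gabapentin, rose from 0.0865 to 0.357 FPKM against that trend. Of 33 receptors for GABA, glycine, glutamate and acetylcholine, 25 were called lower and 4 higher, and the subunit Gabrg1 rose from 0.31 to 1.04 FPKM. Synaptic vesicle genes gave 22 of 30 called lower and 4 higher, with Rph3a, a Rab3 effector, at 7.04 FPKM before and 2.18 after crush, and Syt4, a synaptotagmin, at 30 and 52.5.

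Markers of neurons in general and of the ganglion do not gauge how much neuronal RNA the libraries held, since members moved in opposite directions. Of 16 pan-neuronal and ganglion genes, 10 were called lower and 5 higher. The median was -0.23, above that of the nociceptor list. Their summed FPKM was 1858 to 2044 in the naive and 1694 to 1819 in the injured libraries. Prph was not called (log2 fold change -0.02, adjusted p = 0.82), Tubb3, neuronal beta tubulin, rose from 180 to 220 FPKM to 350 to 400 and Snap25, of the vesicle fusion complex, fell from 7.05 to 3.55.

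**Figure D3:**
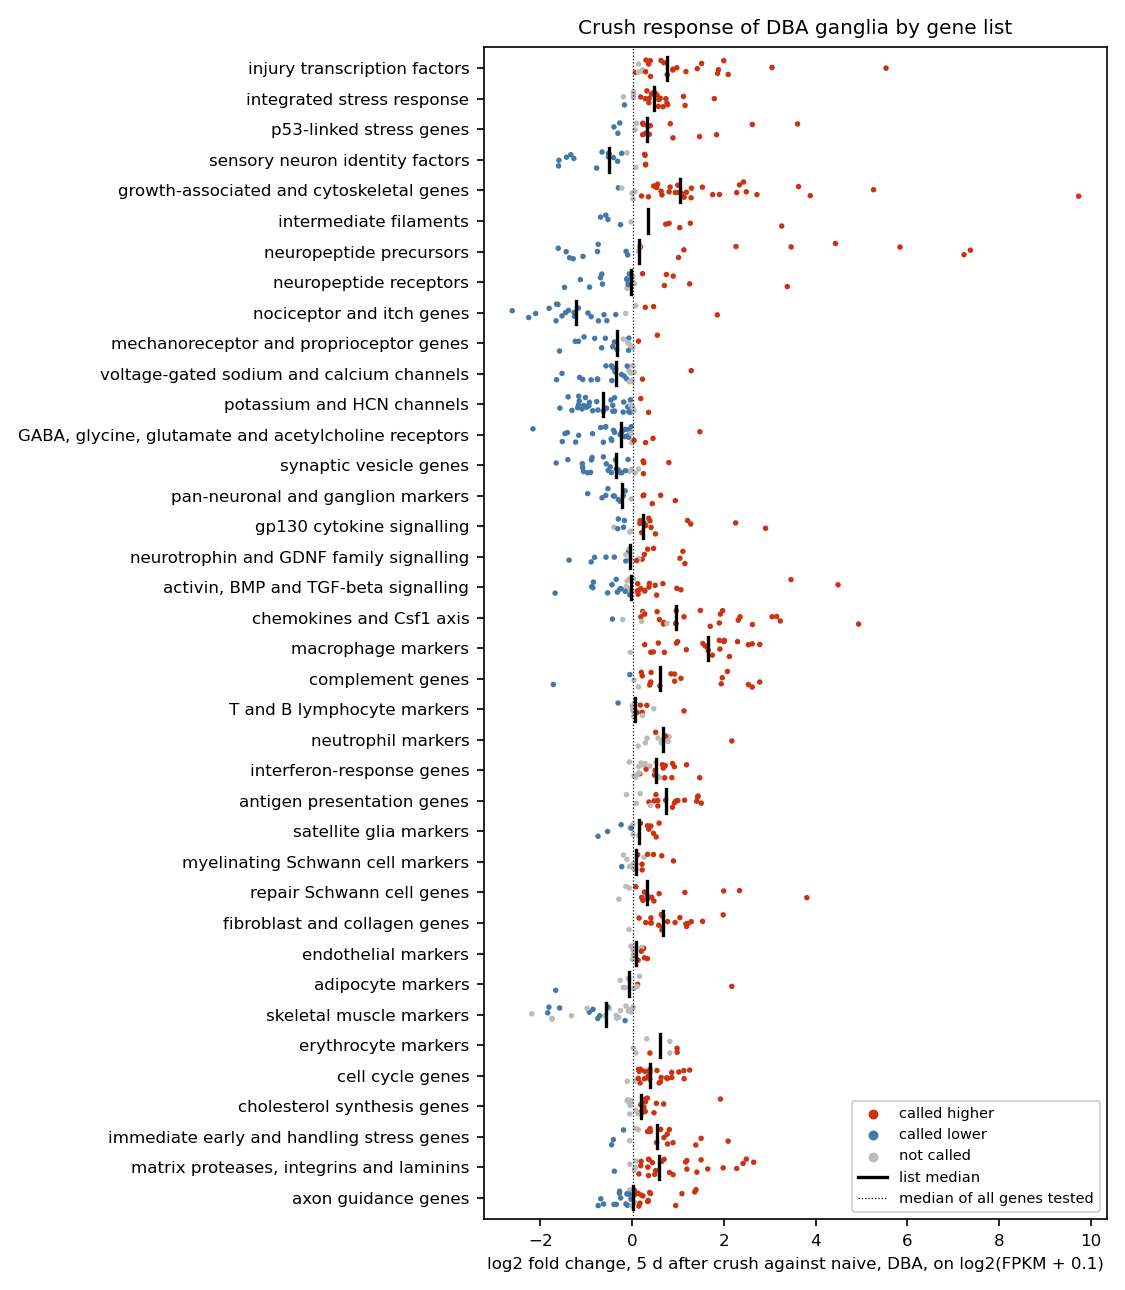
Log2 fold changes of all tested members of the 38 gene lists in DBA ganglia, injured against naive on log2(FPKM + 0.1), with members called higher in red, called lower in blue and not called in grey. Black bars are list medians and the dotted line is the median of all genes tested. Lists of nociceptor genes and ion channels lie to the left of the line, and those of injury factors, growth proteins, chemokines and macrophages to its right.

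Genes of cytokine and trophic signalling were called in both directions. Of 20 genes of the gp130 cytokine pathway, which signals through Stat3, 13 were called higher and 4 lower. Socs3, its feedback inhibitor, went from 2.14, 1.77, 2.04 and 1.74 FPKM to 9.82, 9.05, 9.3 and 10, a 4.96-fold rise. Among neurotrophin and GDNF family genes 8 of 19 were called higher and 7 lower. The ligand Gdnf rose from 0.00722 to 0.139 FPKM and the artemin receptor Gfra3 from 1.27 to 2.85, while Gfra2, the receptor of neurturin, fell from 1.98 to 0.702. In activin, BMP and TGF-beta signalling 16 of 36 were called higher and 12 lower. Beside Fst, Inhbb, a subunit of activin B, rose from 0.685 to 8.54 FPKM, and Nog, the BMP antagonist noggin, fell from 3.52 to 1.04. Inhba, the subunit of activin A, stayed at a very low level, at 0.00688 to 0.0108 FPKM in the naive and 0.0147 to 0.0204 in the injured libraries (log2 fold change 0.12, adjusted p = 0.0039). Its means differed 1.99-fold, a change that the 0.1 FPKM added before the log flattens.

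Chemokines and the Csf1 axis rose, with 23 of 28 called higher, 1 lower and a median of 0.96. Csf1, the macrophage growth factor that injured sensory neurons secrete, went from 0.207, 0.212, 0.199 and 0.198 FPKM to 2.52, 2.3, 2.37 and 2.51, an 11.9-fold rise with narrow spread in both groups. Ccl7, a monocyte chemokine, rose from a mean of 0.183 to 2.31 FPKM.

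Of 23 macrophage markers 22 were called higher and 0 lower, with a median of 1.66 that fell to 0.49 with a pseudocount of 1 FPKM. C1qa, which encodes part of the first complement component, went from 2.22, 2.23, 2.72 and 2.41 FPKM to 16, 14.5, 15.6 and 14.6, and Cd68, a lysosomal protein of macrophages, 4.86-fold, from 0.301 to 0.444 FPKM to 1.65 to 1.76. Naive replicate 3 had the highest macrophage level among the naive libraries, a summed 20.2 FPKM against 12.3 to 13, yet stayed below the 68.3 to 80.8 of the injured ones. Lyz2, lysozyme of macrophages and neutrophils, lay at 10.2 FPKM in it against 4.87 to 5.07. Without it the count was again 22. Of 21 complement genes 17 were called higher and 2 lower. Cd55, which protects cells from complement, went from a mean of 6.53 to 1.92 FPKM.

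Other blood-borne cells gave a less even picture. Of 16 lymphocyte markers 5 were called higher and 1 lower, and Cd3e, of the T cell receptor complex, was not called, at 0.00697 to 0.0162 FPKM before and 0.0098 to 0.0181 after crush. Of 13 neutrophil markers 3 were called higher, 5 without naive replicate 3. Ly6g, the neutrophil surface antigen, rose from 0.278, 0.152, 0.126 and 0.15 FPKM to 1.07, 1.02, 1.27 and 1.15, but S100a8, an abundant protein of neutrophil granules and cytosol, varied within groups, at 2.83, 4.09, 10.5 and 2.31 FPKM before and 12.3, 2.99, 13.3 and 5.15 after crush. Haemoglobin varied in a like way: Hba-a1, which shares reads with its copy Hba-a2, lay at 79.3, 131, 155 and 106 FPKM in the naive and 245, 121, 447 and 198 in the injured libraries, and of 8 erythrocyte markers 3 were called higher, 5 without naive replicate 3 and 0 when the 8 DBA libraries were fitted alone. Injured replicates 1 and 3 were high and replicate 2 low for both kinds of cell, and the part of blood in these values was not tested.

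Interferon-response genes rose in part, 14 of 28 called higher and 0 lower, with 11 called higher when naive replicate 3 was left out, 9 with a pseudocount of 1 FPKM and 21 when the 8 DBA libraries were fitted alone. Isg15, a ubiquitin-like effector, went from 1.11, 1.21, 1.3 and 1.45 FPKM to 3.12, 3.06, 3.48 and 2.44, a 2.39-fold rise. Ifit1, an RNA-binding effector, was not called (adjusted p = 0.14). It lay at 0.635, 0.696, 0.595 and 0.699 FPKM before and at 0.838, 0.838, 1.39 and 0.945 after crush. Injured replicate 3 was the highest for the list, a summed 27.3 FPKM against 16.1 to 17.5 in the other injured libraries and 10.9 to 12 in the naive ones, and Gbp2, an interferon-induced GTPase, lay at 2.5 FPKM in it against 0.434 to 0.494. Of 19 antigen presentation genes 15 were called higher and 0 lower, and again injured replicate 3 was highest, with a summed 118 FPKM against 83.5 to 87.4.

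Of 15 satellite glia markers 7 were called higher and 4 lower, with a median of 0.15. The rises were above the 26.6% of all genes called higher, and the falls were near the 24% called lower. Sox2, a factor of glial progenitors, rose from a mean of 6.41 to 9.7 FPKM, and the water channel Aqp4 fell from 0.485 to 0.25. Fabp7, a fatty acid-binding protein of satellite glia, was not called, at 27.5 to 31.8 FPKM before and 23.3 to 32.1 after crush. Of 17 genes of myelinating Schwann cells 7 were called higher and 1 lower. Genes of repair Schwann cells gave 13 of 16 called higher and 0 lower, though Gap43 and Jun are members that neurons also express. Ucn2, a urocortin and the member with the largest change, went from 0.182, 0.189, 0.257 and 0.21 FPKM to 4.6, 4.19, 5.05 and 3.26, a 20.4-fold rise.

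Connective tissue and proliferation genes rose. Of 20 fibroblast and collagen genes 19 were called higher and 0 lower (median 0.67), among them Timp1, an inhibitor of metalloproteases (mean 0.447 to 2.06 FPKM), and Col1a1 (5.86 to 17). Naive replicate 3 was again the highest naive library for this list, at a summed 36.7 FPKM against 25.5 to 28.5, below the 57.2 to 65.1 of the injured ones. Matrix proteases, integrins and laminins gave 25 of 30 called higher and 1 lower, led by Adam8 (0.169 to 1.59 FPKM) and Itga7 (6.88 to 39.1), the laminin receptor subunit of growing axons. Endothelial markers gave 6 of 13 called higher with a median of 0.08. Of 26 cell cycle genes 24 were called higher and 0 lower, at low levels: Mki67, the proliferation marker Ki-67, went from 0.0659, 0.0846, 0.152 and 0.0677 FPKM to 0.382, 0.23, 0.372 and 0.3, a 3.47-fold rise. Of 22 cholesterol synthesis genes 13 were called higher and 0 lower, and Hsd17b7 stood apart from the list, with a mean of 1.17 FPKM before and 4.72 after crush.

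Skeletal muscle transcripts were the clearest effect of one library. Acta1, the actin of skeletal muscle (chromosome 8, 123891769 to 123894751), lay at 3.75, 0.459, 29.1 and 1.65 FPKM in the naive DBA libraries and at 0.561, 0.474, 0.977 and 0.516 in the injured ones, and was not called (log2 fold change -2.19, adjusted p = 0.077). Ckm, muscle creatine kinase, lay at 0.656, 0.19, 4.05 and 0.309 FPKM before and 0.0702 to 0.204 after crush. Replicate 3 was the highest of the naive libraries for both, and naive replicate 1 came next. Of the 26 muscle genes tested, 9 were called lower in DBA and 0 higher, and 4 were called lower without replicate 3: Actn3, Ryr1, Eno3 and Mybpc2. The calls of Mylpf, Ckm, Myh4, Myh1 and Myh2 were lost, and the log2 fold change of Ckm went from -1.84 to -1.03 (adjusted p = 0.018 and 0.081). The slow-fibre genes Myh7, Tnnt1 and Tnni1 were not the highest in replicate 3 and were not called.

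The count also moved with other naive libraries. Leaving out naive replicate 2, the lowest for muscle genes, gave 20 members called lower, leaving out naive replicate 4 gave 17, and fitting the 8 DBA libraries alone gave 2. In the libraries of C57 and CAST the summed level was 1.51 to 11 FPKM with a median of 2.61, so naive replicates 2 and 4 and all injured DBA libraries lay inside that range and replicate 1, at 9.2, near its top. Naive replicate 3 was also the highest naive library for some genes of fat and of neutrophils. Adipoq, adiponectin, lay at 0.0501 FPKM in it against 0.00992 to 0.0123 and was not called between the groups, while Car3, an abundant carbonic anhydrase of fat and muscle, lay at 1.4 FPKM in it against 0.202 to 0.443 and at 2.25 to 2.42 after crush (adjusted p = 0.00014). Genes at 1 FPKM or more and over 2 times as high as in each other library of their group numbered 48 in naive replicate 3, 3 to 16 in the other naive libraries and 54 in injured replicate 2. Those of naive replicate 3 also held small nuclear RNAs and short RNA entries of very high FPKM. An abundant microRNA entry lay at 7883 FPKM in naive replicate 3 against 1286, 2055 and 3250 in the other naive libraries. The same entry lay at 5239 FPKM in injured replicate 2 against 1561 to 2241 in the other injured libraries. What raised these RNAs was not tested.

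**Figure D4:**
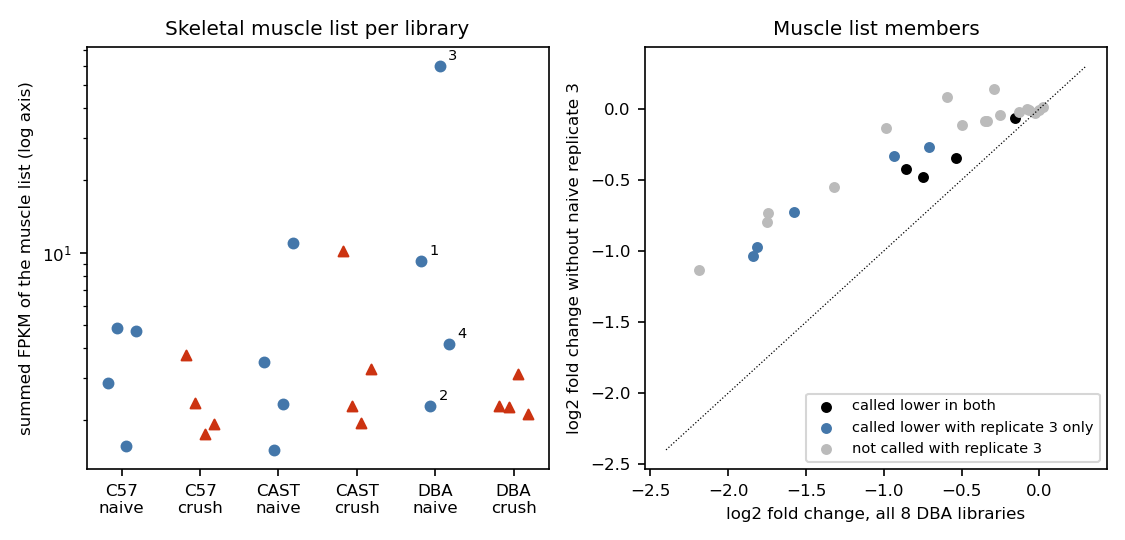
Left, summed FPKM of the skeletal muscle list in each library on a log axis by group, with naive DBA libraries numbered; naive replicate 3 lies at 59.8, above all others. Right, log2 fold changes of the 26 muscle genes in DBA with all 8 libraries and without naive replicate 3; points above the dotted line of equality are falls that are smaller without it, largest for Acta1.

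The response of DBA was then set against that of the other strains. Of the genes called higher in DBA, 3695 (51.4%) were also called higher in both C57 and CAST, and these were 93.4% of the genes called higher in both. Of those called lower, 3785 (58.3%) were called lower in both, 91.3% of the genes called lower in both. The 3 comparisons share no library but do share the estimate of each gene's spread, so their calls are not independent. Changes of at least 2-fold numbered 1227 in DBA, 639 in C57 (2.36%) and 1080 in CAST (3.99%), and downward ones 401, 115 (0.425%) and 227 (0.839%). Over all genes, 18.7% were called higher and 20.7% lower in C57, and 25.8% and 21.5% in CAST. The difference between the DBA response and the mean of the other strains was called in 3135 genes (11.6%), 1601 (5.92%) in which the DBA response lay above and 1534 (5.67%) in which it lay below.

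The genes set apart here are protein-coding, with a mean of at least 1 FPKM in the higher DBA group and a called DBA response in the direction of the difference. Among those that rose more in DBA, C1ql2 had the largest difference, 2.53 ± 0.18 (SE) on the log2 scale (adjusted p = 8.4e-09). It reached 2.36, 2.31, 3.03 and 2.85 FPKM in the injured DBA libraries against means of 0.294 in injured C57 and 0.462 in injured CAST, and its naive means were 0.0462 in DBA, 0.0614 in C57 and 0.0329 in CAST. Ifi202b, an interferon-inducible gene of the Ifi200 family, came next. It rose from 0.107, 0.0802, 0.111 and 0.0958 FPKM to 1.26, 1.05, 1.68 and 1.26 in DBA. Injured means were 0.0204 in C57 and 0.0574 in CAST, against naive means of 0.00828 and 0.00636. The ratio of injured to naive mean was 13.3 in DBA, 9.02 in CAST and 2.46 in C57. The C57 and CAST means lay under the 0.1 FPKM added before the log, so the difference of Ifi202b also depends on level. Mcpt2, a mast cell protease, rose 3.42-fold in DBA and was at means of 0.00451 FPKM or less in the other strains, naive or injured. For Ifi202b and Mcpt2, members of gene families, the effect of strain sequence on alignment to mm10 was not tested.

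The other genes of this kind were secreted or enzymes. Reg1, a secreted protein of the regenerating family, was listed at 0 in all naive libraries of DBA, C57 and CAST and reached 1.5, 1.59, 1.18 and 1.63 FPKM after crush in DBA, at least 250.6-fold above the level that 3 reads per library would give. Its means after crush were 0.491 FPKM in C57 and 0.538 in CAST. Cyp26a1, Ccl8 and the chemokine Cxcl14 rose more in DBA than the mean of the other strains by 1.98, 1.96 and 1.77 on the log2 scale, and Ucn2 by 1.57, where DBA differed from C57 (adjusted p = 5.5e-07) and not by the test from CAST (0.64, adjusted p = 0.082). As ratios of means, Cyp26a1 rose 35.1-fold in DBA, 31.3-fold in C57 and 5.92-fold in CAST. Ccl8 rose 51.6-fold, 34.1-fold and 5.82-fold, and Cxcl14 18-fold, 4.1-fold and 6.97-fold. Naive means of Cyp26a1, Ccl8 and Cxcl14 lay near or under the 0.1 FPKM added before the log, so their differences also depend on level.

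Among those that fell more in DBA, Hoxd10 came first (Hoxc11 and Hoxd11, with differences of -3.21 and -2.13, had naive means of 0.918 and 0.907 FPKM, under that level), followed by Plin4, a lipid droplet protein (difference -1.90 ± 0.57, adjusted p = 0.036), a call that was lost under 13 of the 31 alternatives. Plin4 differed from CAST (-2.36, adjusted p = 0.02) and not by the test from C57 (-1.43, adjusted p = 0.225). Klk8 lay at 2.26, 2.36, 2.31 and 2.65 FPKM in naive DBA ganglia and at 0.402 to 0.746 after crush, while its naive means were 0.244 in C57 and 0.0316 in CAST, so the larger fall started from a level the other strains did not have. Angptl7, a secreted angiopoietin-like protein, fell 2.19-fold in DBA while its mean in C57 was 0.767 FPKM before and 0.95 after crush and in CAST 2.17 and 3.41. The serotonin receptors Htr3a and Htr1a and the receptor Mrgprb4 fell in all 3 strains and more in DBA, with differences of -1.06, -1.004 and -1.03. Htr3a and Htr1a differed from each strain by the test, while Mrgprb4 differed from C57 (-1.40, adjusted p = 0.00053) and not by the test from CAST (-0.66, adjusted p = 0.065). Lgals3bp, a galectin-binding glycoprotein, fell in DBA and C57 (log2 fold changes -0.54 and -0.42) and rose in CAST (1.35). Its DBA response differed from CAST (-1.89, adjusted p = 1.2e-07) and not by the test from C57 (-0.13, adjusted p = 0.76).

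**Figure D5:**
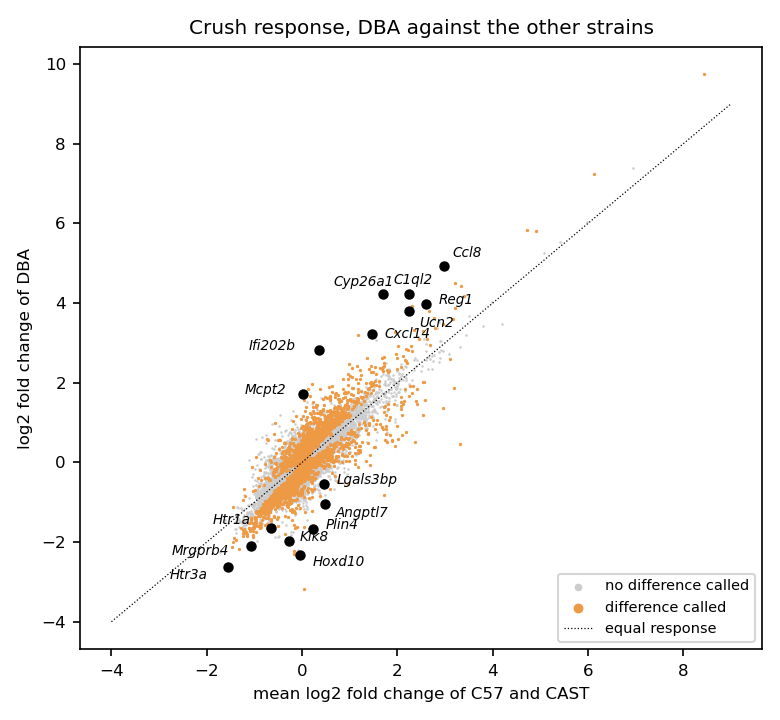
Log2 fold change after crush in DBA (vertical) against the mean of C57 and CAST (horizontal) for all genes tested, with genes whose difference was called in orange and the 16 genes with the largest called differences among genes at 1 FPKM or more labelled. The dotted line marks an equal response. C1ql2, Ifi202b, Cyp26a1 and Ccl8 lie above it, and Hoxd10, Plin4 and Klk8 below it.

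Lists differed in how many members set DBA apart, against 5.92% and 5.67% of all genes above and below. Cell cycle genes responded more in DBA in 16 of 26 tested and less in 0. Of the repair Schwann cell genes 7 of 16 responded more and 1 less, of the fibroblast genes 6 of 20 and 0, and of the growth-associated genes 10 of 34 and 2. Among the last, Gap43 differed by 0.35 (adjusted p = 0.0043), with a difference from C57 (0.45, adjusted p = 0.0027) but not by the test from CAST (0.26, adjusted p = 0.065), and Sprr1a by 1.31 (adjusted p = 0.021), where the difference was from CAST (2.32, adjusted p = 0.00051) and not by the test from C57 (0.30, adjusted p = 0.78). Gal rose more in DBA than in C57, by 1.97 (adjusted p = 6.3e-05), and differed from CAST by 0.27 (adjusted p = 0.6). Atf3 rose by 5.54, 5.55 and 5.29 in DBA, C57 and CAST, with a difference of 0.12 ± 0.14 that did not pass (adjusted p = 0.7).

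Lists of neuronal genes held members that fell further in DBA. The response lay below that of the other strains in 11 of 24 nociceptor and itch genes and above in 2, and below in 11 of 37 potassium and HCN channel genes and above in 0. Scn10a fell by 1.53 in DBA, 0.94 in C57 and 1.16 in CAST on the log2 scale (difference -0.48, adjusted p = 0.048). It differed from C57 (-0.59, adjusted p = 0.045) and not by the test from CAST (-0.37, adjusted p = 0.2). Tac1 fell by 1.61, 0.85 and 1.17 (difference -0.60, adjusted p = 0.00068). Pvalb went against this: it fell by 0.67 in DBA and by 1.20 and 1.25 in C57 and CAST (difference 0.56, adjusted p = 0.0073). In its list, of mechanoreceptor and proprioceptor genes, the response lay above that of the other strains in 6 of 19 and below in 5. Members of that list called lower numbered 12 in DBA, 16 in C57 and 17 in CAST. Calca fell by 0.75, 0.76 and 0.70, with a difference of -0.03 that did not pass (adjusted p = 0.92).

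Interferon-response genes lay below the other strains in 13 of 28 and above in 0, and here the other strains were unlike each other. In C57 3 of the 28 were called higher, in DBA 14 and in CAST 27. Ifit1 changed by 0.52 in DBA, -0.25 in C57 and 4.97 in CAST, and Isg15 by 1.19, 0.01 and 4.20. DBA differed from CAST in both genes (adjusted p = 1.4e-07 and 2.8e-06) and from C57 in Isg15 (1.18, adjusted p = 0.038) but not by the test in Ifit1 (0.77, adjusted p = 0.31). Inhba likewise changed by 0.12 in DBA, 0.01 in C57 and 1.06 in CAST (DBA against CAST -0.95, adjusted p = 7e-12). As ratios of means its rises were 1.99-fold, 1.05-fold and 13.2-fold.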

How the data were processed

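Ganglion RNA was extracted as total RNA with Trizol and sequenced on Illumina instruments, per the labels' protocols. Reads were aligned with STAR 2.3.0 to mm10, per the submitters' processing notes; how genes were counted, on which annotation, with or without strand and with what handling of multiply mapped reads is not given in the sources used here. FPKM per gene is what the authors deposited. Whole-read steps in the low values gave each library's total (51.4 to 145 M reads over the 24 libraries), with 67.9% of the tested values whole within 0.05 of a read where 10% would be by chance. The size of the steps matched gene span, introns included, as the length. Since not nearly all values were whole, no count model was the main test. Spans came from GENCODE M21, which holds 36429 of the 38215 gene IDs (95.3%).

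A gene was kept when 4 or more libraries had 10 estimated reads or more (27064 kept, 11151 removed), among them 907 IDs without a span that had at least 0.1 FPKM in 4 libraries. Differences were tested with limma 3.58.1 in R 4.3.3 (trend and robust options) on log2(FPKM + 0.1), which understates changes of low genes, over all 24 libraries with 6 group means and Benjamini-Hochberg adjustment. A called gene has an adjusted p under 0.05. The script was tested on simulated data. P-values weigh a difference of group means against the spread between libraries within groups, estimated over all 24 libraries. Folds are ratios of mean FPKM. Dixon's gap ratio marked single libraries.

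The comparison, the 38 gene lists and the genes named were chosen with earlier results of these data known. Named were the 12 largest rises and 12 largest falls among protein-coding genes with no overlap and at least 1 FPKM, the 4 members of each list that changed most, members not called, 34 set genes, and the 8 largest differences from the other strains in each direction, with muscle, fat and blood genes for naive replicate 3. Some genes that this rule names are not reported here. Isl1, Syt4, Nefh, Ucn, Cd55 and the Hox genes other than Hoxd1 and Hoxd10 were named after their values were seen. Alternatives were other pseudocounts, filters and scalings, voom, the DBA libraries alone, a replicate block and leaving out each library. Promoters came from RefSeq GRCm38.p6.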

Additional observations from a re-analysis of the deposited data

Results flagged for a closer look

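A library was set apart here where its gap to the nearest of the other 3 of its group, divided by the range of the group, was above Dixon's 95% critical value for 4 samples. Chance sets apart about 1 in 20 groups, and here it was 40 of 322 groups of 4, over the genes named and the summed level of each list. The genes named include muscle, fat and blood genes chosen because of naive replicate 3, so this share is not read against chance. Naive replicate 3 was the high one for muscle genes, at 29.1 FPKM for Acta1, 4.16 for Mylpf, 4.05 for Ckm, 2.15 for Myh4, 0.612 for Myh1, 0.835 for Actn3 and 0.0421 for Ryr1, and for the muscle list, which summed to 59.8 FPKM in it. It was also the high naive library for Lyz2 at 10.2 FPKM, Ccl7 at 0.348, Adipoq at 0.0501, Angptl7 at 4.16, C1ql2 at 0.0722 and the macrophage list at 20.2.

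Injured replicate 3 was the high library for Gbp2 at 2.5 FPKM, Crh at 8.9, Hoxd9 at 5.31, Mybpc2 at 0.311, Myh4 at 0.074, the interferon-response list at 27.3, the antigen presentation list at 118 and the muscle list at 3.12. It was the low one for Gal at 323 FPKM, Tubb3 at 350, Fabp7 at 23.3 and the growth-associated list at 3006. The other libraries were apart in fewer results. Injured replicate 1 was high for Gfap at 2.96 FPKM, Gfra3 at 2.96, Car3 at 2.42 and Hotair at 0.00464, which the other 3 list at 0. Injured replicate 2 was high for Scn10a at 3.31 FPKM and the nociceptor list at 67.5 and low for Sema6a at 0.211, and injured replicate 4 was low for the p53-linked list at 91.8. Among naive libraries, replicate 1 was high for Cyp26a1 at 0.141 FPKM and Sema4f at 1.85 and low for Chrna6 at 11.3. Naive replicate 4 was high for the integrated stress response list at 110 FPKM and low for Sox11 at 2.03 and the matrix list at 29.2.

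The crush response of DBA differed from the mean of C57 and CAST, by the test of that difference with limma, in 67 of 123 genes named, against 11.6% of all genes. The genes named include those chosen for the size of this difference and Hox genes chosen after their values were seen, so nothing is read from that share. The difference is given on the log2 scale, injured against naive. It was positive for the peptides and secreted proteins Gal (1.12), Crh (1.13), Nts (1.10), Ucn2 (1.57), Reg1 (1.36), Fst (1.29), C1ql2 (2.53), Inhbb (0.51), Gdnf (0.91) and Timp1 (0.81) and the chemokines Ccl8 (1.96) and Cxcl14 (1.77). Among growth and filament genes it was positive for Sprr1a (1.31), Gap43 (0.35), Flrt3 (0.67), Tubb6 (0.85), Itga7 (0.28), Sema4f (0.70), Gfap (1.31), Vim (0.52) and Nes (0.69). Among regulators it was positive for Jun (0.56), Fos (1.14), Egr3 (1.29), Arc (0.59), Sox2 (0.49), Socs3 (0.77) and Gadd45a (0.44). It was also positive for Gpr151 (0.91), Cckbr (0.59), Gabrg1 (0.54), Cyp26a1 (1.98), Hsd17b7 (0.30), Ifi202b (2.46), Mcpt2 (1.70) and Pvalb (0.56), the last of which fell less in DBA. As ratios of means, Gpr151 rose 62.3-fold in DBA, 84.9-fold in C57 and 11.9-fold in CAST. Its DBA response lay above that of CAST (adjusted p = 9.4e-07) and did not differ by the test from that of C57 (-0.47, adjusted p = 0.29).

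The difference was negative for the Hox genes and their neighbour Hotair, at -3.21 for Hoxc11, -2.29 for Hoxd10, -2.13 for Hoxd11, -0.35 for Hoxd9, -0.47 for Hoxd1 and -1.67 for Hotair. Among genes of neurons it was negative for Htr3a (-1.06), Htr1a (-1.004), Chrna6 (-0.85), Mrgprb4 (-1.03), Mrgprx1 (-0.66), Kcnmb1 (-0.55), Tac1 (-0.60), Scn10a (-0.48), Th (-0.81), Rph3a (-0.38), Pou4f2 (-0.70), Pou4f3 (-0.68), Isl2 (-0.41) and Rnf112 (-0.68). The others were Comp (-0.67), Klk8 (-1.70), Plin4 (-1.90), Angptl7 (-1.55), Lgals3bp (-1.01), Cd55 (-0.52), Cdkn1a (-0.32), Inhba (-0.42), Ifit1 (-1.84), Actn3 (-1.24) and Tnni1 (-0.28). The negative value of Actn3 rests in part on naive replicate 3, in which it lay at 0.835 FPKM against 0.154 to 0.234. The strain difference of Actn3 without that library is not reported here.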

How the results depend on the processing

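Counts of at least 2-fold changes depended on the scale. With a pseudocount of 1 FPKM they were 212 higher and 97 lower in DBA, and 9 and 8 for DBA minus the other strains; with voom on estimated reads they were 2082 and 1151, and 202 and 194. Keeping genes with a mean of at least 0.1 FPKM, which tests fewer genes, gave 921 and 934 differences from the other strains. Leaving out 1 library at a time gave 6562 to 6899 genes higher and 6002 to 6194 lower in DBA, 805 to 854 and 378 to 453 of them by at least 2-fold, and 1248 to 1849 and 1227 to 1696 for the difference, 60 to 70 and 52 to 67 by at least 2-fold. The other counts over all genes stayed within 1.5 times. Of the counts over single lists 74 moved by more and 1142 did not: 3 erythrocyte markers called higher became 0 with the 8 DBA libraries alone, and 14 interferon-response genes became 9 with a pseudocount of 1 FPKM.

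Replicate numbers did not pair the DBA samples. Their same-number correlations were -0.00149, -0.111, 0.0189 and -0.0334, and no injured DBA library correlated best with its own number. In the other strains, injured replicate 1 of C57 (0.13) and injured replicate 3 of CAST (0.057) did. With a replicate block, 6950 genes were higher and 6259 lower in DBA (825 and 401 by at least 2-fold), and 1277 and 1176 differed from the other strains (64 and 59).

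Genes that changed sign were not called in either case. Over the libraries left out in turn, Fabp7 ranged from -0.023 to 0.13 and Adipoq from -0.13 to 0.023. Fabp7 was at -0.017, -0.023 and -0.012 without injured replicates 1, 2 and 4 and at -0.0059 without naive replicate 2, and Adipoq at 0.023 without naive replicate 3. Of the values of single named genes under the alternatives, 3152 kept their direction and side of the threshold, 75 lost the call and 4 gained one; the cause was not tested. With 4 libraries a group, changes smaller than the spread between libraries were not detectable, and genes under about 10 estimated reads were not tested.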
